A study of Mus musculus with 112 samples.

Results

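The comparison described here is between prefrontal cortex of sons whose sires lacked NRF2 and sons whose sires were WT, where every sire had been exposed to cigarette smoke (CS). It takes in 16 of the 112 libraries of the series, all 8 of the smoked Nrf2-/- F1 brain group and all 8 of the smoked WT F1 brain group, and no library of an unexposed sire enters it. The assay was reduced representation bisulfite sequencing (RRBS), which cuts DNA at MspI and TaqαI sites and reads methylated cytosines as cytosine and unmethylated ones as thymine. Sires were WT C57BL/6J males or Nrf2-/- males of a C57BL/6J background, exposed to CS for 60 days. WT and Nrf2-/- mice came from separate stocks, so the genotype of the sire and its stock cannot be told apart. The sires were mated to unexposed CAST/EiJ females, and male offspring were sampled at 14 to 17 weeks of age. By this breeding, the sons of Nrf2-/- sires carry a single null allele, the sons of WT sires carry none, both groups have a CAST/EiJ genome from the mother, and the X chromosome of every son is maternal. The comparison asks whether brain DNAme of sons differs with the Nrf2 genotype of the smoked sire. It compares null with WT inheritance under smoke and does not isolate an effect of smoke.

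NRF2, encoded by Nfe2l2, is a transcription factor that is held back by KEAP1 in resting cells. Under oxidative or electrophilic stress it escapes KEAP1, pairs with small MAF proteins and turns on antioxidant and detoxification genes. In brain, DNAme at CpG sites is low at most CpG-rich promoters and high over most gene bodies and intergenic DNA. Parental inheritance of methylation or of sequence can both alter a methylation percent, since a CpG that is read as TpG counts as unmethylated.

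A position had a value in 1356432 to 1711088 cytosines per library in sons of smoked Nrf2-/- sires and in 1332684 to 1624534 in sons of smoked WT sires. The deposited percents carry no read counts, and read depth is therefore unknown. The 16 columns could be tied to their groups but not to numbered samples, and are named by their order in each table. Facility library numbers were lower in all 16 brain libraries of Nrf2-/- sires than in all 16 of WT sires, so the genotype of the sire and the run of library numbers cannot be told apart in brain. 1 library stood apart. Smoked WT column 8 had a mean DNAme of 30.9%, where the other 7 of its group lay between 35.98% and 38.01%, and results that rest on it are given with and without it.

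A cytosine was scoreable with a value in at least 4 libraries of each group, which left 1432727 cytosines. Cytosines at most 100 bp apart were joined into 82813 regions of at least 3 cytosines. limma, which sets each difference against the spread between libraries, called 8 regions (0.00966% of those tested) at an adjusted p below 0.05, 2 higher (0.00242%) and 6 lower (0.00725%) in sons of smoked Nrf2-/- sires. The count was 78, 9 higher and 69 lower, when all 4 brain groups, unexposed sires included, shared the spread. With the smoked groups alone, it was 22, 3 higher and 19 lower, without smoked WT column 8. It was 3 or 4 without any of smoked Nrf2-/- columns 2, 3 or 8 or smoked WT columns 2, 4, 5 or 6. At single cytosines it called 26 of 1240611 (0.0021%), 2 higher and 24 lower (0.00193%). The number higher was 14 of 39 on the arcsine square root scale and 10 of 34 without smoked Nrf2-/- column 4. These calls were not spread evenly over the genome. 5 of the 8 regions and 19 of the 26 cytosines lay on chromosome 2, the chromosome of Nfe2l2.

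The sequences of 4 called regions of chromosome 2 are shown because the difference in each comes from a single CpG. They are written 5′ to 3′ on the forward strand of mm10 with 10 flanking bases on each side. Capitals mark the CpG that differed by more than 20 points between the groups, and every other CpG is in lower case.
Osbpl6 intron, chr2:76447339-76447423: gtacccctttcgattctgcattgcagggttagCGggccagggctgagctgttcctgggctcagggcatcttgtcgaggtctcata
Pde11a coding exon, chr2:76158264-76158364: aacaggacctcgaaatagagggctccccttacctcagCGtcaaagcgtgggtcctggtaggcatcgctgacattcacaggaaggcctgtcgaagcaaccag
Tanc1 intron, chr2:59673561-59673695: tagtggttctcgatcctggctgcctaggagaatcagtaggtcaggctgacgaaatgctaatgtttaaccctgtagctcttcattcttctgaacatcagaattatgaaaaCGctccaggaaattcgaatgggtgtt
Cers6 intron, chr2:68977857-68977963: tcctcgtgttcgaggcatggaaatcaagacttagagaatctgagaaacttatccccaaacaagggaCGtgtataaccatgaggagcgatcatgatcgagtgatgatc

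The region with the smallest p lay in an intron of Osbpl6, which encodes an oxysterol-binding protein. Its 8 smoked Nrf2-/- libraries had 36.4%, 41.2%, 33.7%, 39.8%, 38.6%, 39.1%, 38.7% and 38.4% DNAme, and its 8 smoked WT libraries had 85.8%, 83.2%, 83.0%, 85.2%, 81.3%, 79.3%, 80.8% and 84.3%. Every library of the first group lay below every library of the second, and the gap between the groups was wider than the range of either. The group means were 38.2% ± 2.29 (SD, n = 8) and 82.9% ± 2.26 (n = 8), a difference of -44.6 points with a 95% half-interval of 4.1 points (limma adjusted p = 2.6e-09). The CpG in capitals carried the change. It had 0.236% ± 0.444 on the forward strand against 88.6% ± 4.38, and 4.35% ± 3.65 on the reverse strand against 90.3% ± 5.02. The outer cytosines of the region had 74.3% against 85.2% and 74.1% against 67.3%.

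In Pde11a, the gene of a cyclic nucleotide phosphodiesterase, the region lay in coding sequence. It had 69.6% ± 2.78 (n = 8, 66.9% to 74.4%) against 82.9% ± 4.08 (n = 8, 77.0% to 90.6%), a difference of -13.3 points (limma adjusted p = 0.0209). The groups did not overlap. At the CpG in capitals the means were 0.369% ± 0.690 and 78.04% ± 7.08. The largest difference at the other 5 cytosines was -3.79 points. The call was lost without any of smoked Nrf2-/- columns 2, 3, 5 or 8 or smoked WT columns 2, 5 or 6, with an adjusted p of up to 0.0827.

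The Tanc1 region, in an intron of a postsynaptic scaffold gene, had 68.6% ± 2.37 (n = 8, 65.5% to 72.4%) against 82.9% ± 2.55 (n = 8, 79.5% to 86.9%), a difference of -14.3 points (limma adjusted p = 7.01e-04). Its marked CpG had 0.567% ± 1.15 against 50.1% ± 5.95. The region in an intron of Cers6, a ceramide synthase gene, had 69.4% ± 2.34 (n = 8, 66.8% to 73.1%) against 83.7% ± 2.12 (n = 8, 80.6% to 86.6%), again -14.3 points (limma adjusted p = 3.99e-04). Its marked CpG had 2.02% ± 1.67 against 49.9% ± 5.85. In both genes the 3 other cytosines had means of 87.05% or above in both groups, and the largest difference among them was -5.34 points.

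**Figure D1:**
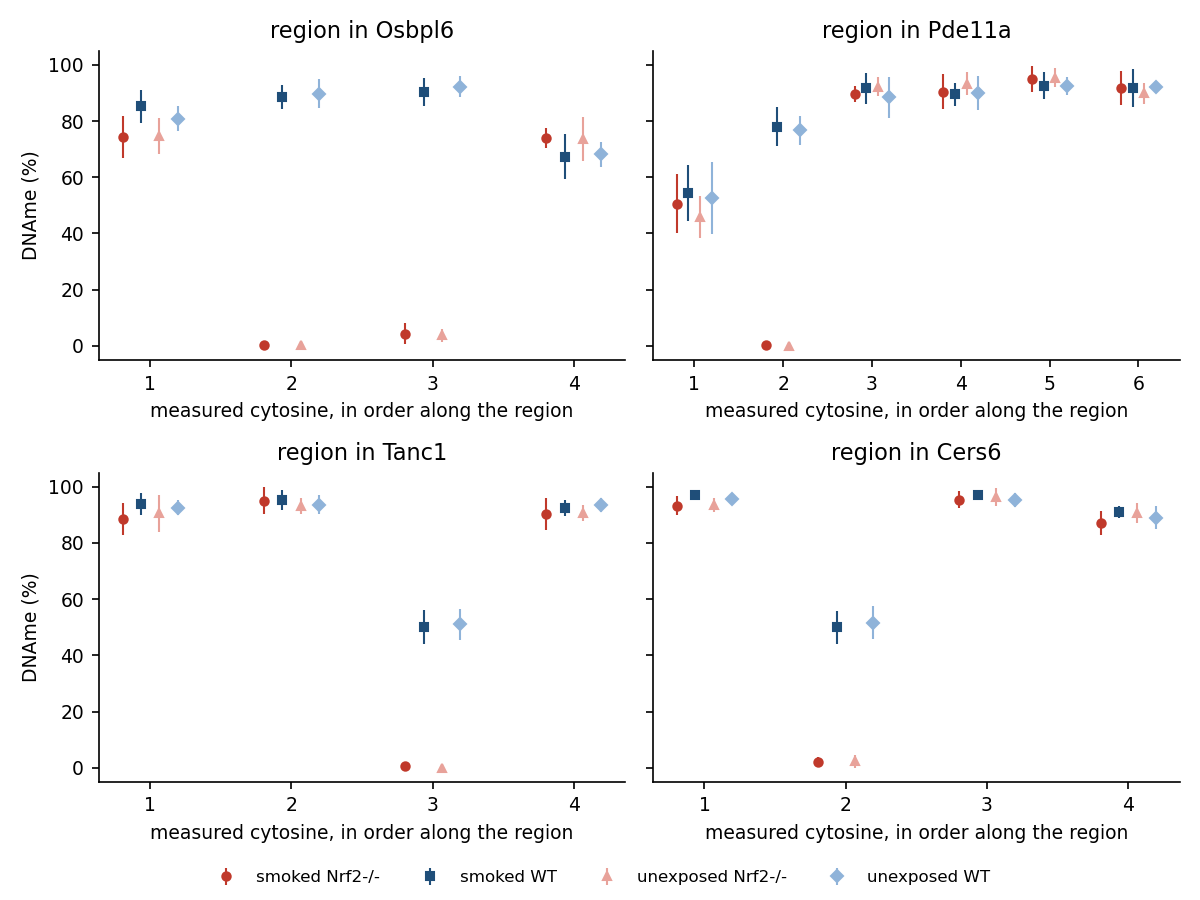
DNAme (%) at each measured cytosine, in order along 4 called regions of chromosome 2, as group mean with SD over 8 libraries of sons of smoked Nrf2-/-, smoked WT, unexposed Nrf2-/- and unexposed WT sires. In each region 1 or 2 cytosines lay at or below 4.35% in both groups of Nrf2-/- sires and between 49.9% and 92.2% in both groups of WT sires, while the other cytosines differed by between -10.9 and 6.79 points in sons of smoked sires.

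The fifth called region of chromosome 2 was the nearest to Nfe2l2 and the only one of the 5 that was higher. It spanned chr2:75658385-75658470, within 1 kb of the start of Hnrnpa3, the gene of an RNA-binding protein. Sons of smoked Nrf2-/- sires had 12.6% ± 1.21 (n = 8, 10.3% to 14.5%) and sons of smoked WT sires had 8.13% ± 1.01 (n = 8, 6.11% to 9.35%), a difference of 4.46 points (limma adjusted p = 0.0359). Its first cytosine held most of this, with 47.7% ± 5.36 against 29.5% ± 3.09. The call was lost under 21 of 28 alternatives, with an adjusted p of up to 0.238.

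Nfe2l2 itself is transcribed from the minus strand and spans chr2:75675513-75704641 in mm10. Its single region with enough cytosines, in an intron at chr2:75681427-75681541, had 39.9% ± 10.95 (n = 8) against 41.7% ± 8.36 (n = 8), a difference of -1.83 points with a half-interval of 10.4 (limma adjusted p = 0.884). Within 1 kb of its start, 8 cytosines had a value in all 16 libraries, and their group means lay at or below 3.21% in both groups. At 4 coding cytosines between 75676209 and 75676369, both groups had values in 7 or 8 libraries, with means of 87.9% to 98.2% and 80.7% to 97.7%.

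18 called cytosines lay within 20.7 Mb of chromosome 2, from position 59522838 to 80247611, and this span includes Nfe2l2. All 18 were lower in sons of smoked Nrf2-/- sires. At all 18 the groups did not overlap, which was also so at every called cytosine outside this stretch. Both strands of the marked CpG of Osbpl6 are among the 18. At 11 of them the smoked Nrf2-/- mean was below 5%, against WT means from 26.1% to 90.3%. At the other 7 it lay between 30.1% and 53.1%, against 59.2% to 96.3% in WT. 10 of the 18 were intergenic, 6 intronic and 1 in coding sequence, and the remaining 1 lay within 1 kb of a transcript start. A cytosine at 63561413, 377126 bp from the start of the potassium channel gene Kcnh7, had 32.5% ± 4.72 against 95.9% ± 3.25 (limma adjusted p = 2.67e-09). A cytosine in an intron of Tanc1 at 59727324 had 48.9% ± 5.23 against 96.01% ± 3.62 (limma adjusted p = 3.79e-07). At both, the groups did not overlap. The 1 call of chromosome 2 outside this stretch, in an exon of Carlr at 18800687, had 5.19% ± 0.769 against 11.6% ± 1.83 (limma adjusted p = 0.0116), and 6.31% against 5.78% in sons of unexposed sires.

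Which cytosines had a value at all also followed the genotype there. 57 cytosines had a value in all 8 smoked Nrf2-/- libraries and in 0 of the 8 smoked WT libraries, and 42 of them lay on chromosome 2, between 58143780 and 80209068. In the opposite pattern were 108 cytosines, of which 101 lay on chromosome 2, between 59611808 and 79636265. Between the outermost of these positions, a span of 22.1 Mb, 17 of 11684 tested cytosines (0.145%) were called, against 2 of 84217 on the rest of chromosome 2 and 7 of 1144710 on the other chromosomes. The called cytosine at 80247611 lies just past the end of this span and is counted with the rest of the chromosome. Most cytosines of the span did not move. Its median difference was 0 points, and 1.04% of its cytosines differed by more than 20 points, against 0.891% on other chromosomes. The deposited percents do not hold the bases that were read, so a change of sequence and a change of methylation at these CpGs cannot be told apart.

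**Figure D2:**
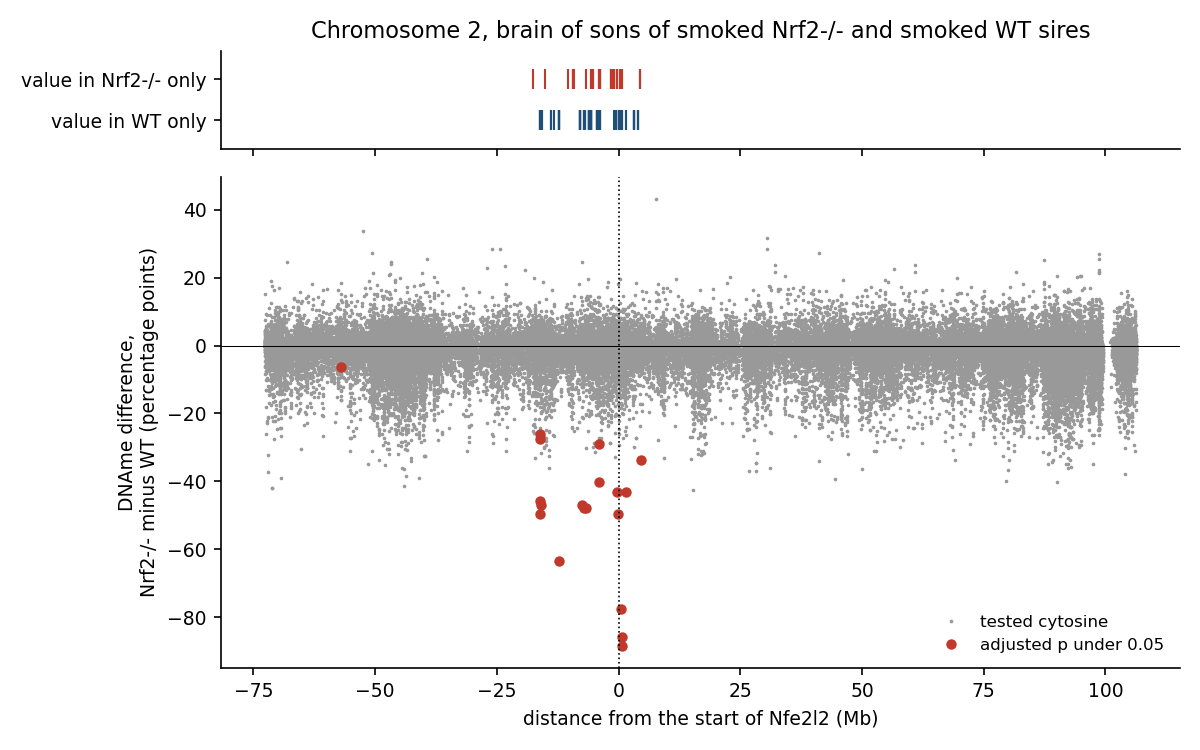
Difference in DNAme (percentage points, smoked Nrf2-/- minus smoked WT) at each tested cytosine of chromosome 2, by distance in Mb from the start of Nfe2l2 (dotted line), with called cytosines in red. Ticks above mark cytosines with a value in all 8 libraries of a group and in 0 of the other, and these, with 18 of the 19 called cytosines, lie between about 18 Mb on the lower side of that start and 5 Mb on the higher side.

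The same positions were read in other libraries of the series. 1 of the 8 unexposed WT samples carries the strain label of the Nrf2-/- line and was grouped by its title, and its column is not known. In sons of unexposed sires (8 libraries for each genotype), the Osbpl6 region had 38.1% ± 1.97 against 82.7% ± 1.92, the Tanc1 region 68.6% ± 2.45 against 82.6% ± 1.57, the Cers6 region 70.7% ± 1.56 against 82.9% ± 3.02 and the Pde11a region 69.5% ± 1.66 against 82.05% ± 3.75. At Osbpl6 all 8 unexposed WT columns lay between 80.4% and 85.6%. The differences were -44.6, -14.01, -12.2 and -12.6 points (limma adjusted p = 2.15e-10, 1.94e-04, 0.00279 and 0.00656). The Hnrnpa3 region differed by 4.71 points, which did not pass there after adjustment over all regions (limma adjusted p = 0.0966, unadjusted p = 1.66e-05). Of the 8 regions called with smoke, 7 differed in the same direction there with an unadjusted limma p below 0.05. Over all regions 9.61% had such a p there, in either direction. All 18 called cytosines of the 20.7 Mb stretch of chromosome 2 were lower in sons of unexposed Nrf2-/- sires too, with an unadjusted limma p below 0.05 at 18 of 18. The median gap between the differences with and without smoke was 2.46 points.

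Sperm of the smoked F0 groups, with 9 libraries for each genotype, differed at most of these CpGs that it covered. At the marked CpG of Tanc1, Nrf2-/- sperm had 0% in all 9 libraries and WT sperm had 96.8% ± 2.59. At that of Pde11a the values were 0% in all 9 and 96.5% ± 4.18. At the marked CpG of Osbpl6, forward strand, they were 0% and 67.4% ± 4.78, a smaller contrast than in brain, and its outer cytosines had 63.97% against 26.8% and 64.02% against 23.2%. Over regions, limma called 88 of 63838 in sperm (0.138%), 11 of them among the 638 tested in the chromosome 2 span. 3 of the 88 were also called in brain. Of the regions called in brain, those at Cers6, Zap70 and Gm11639 had too few sperm values for a test. The marked CpG of Cers6 had a value in 1 Nrf2-/- sperm library, at 22.2%, against 96.7% ± 1.63 in 9 WT libraries, and both unmarked cytosines after it had the same 22.2% in that library. At least 3 sperm libraries of each group covered 12 of the 18 cytosines, and 11 of these 12 were lower in Nrf2-/- sperm. The other, in an intron of Sestd1 at 77272690, was 6.98 points higher there. 10 of these 12 had a mean below 2% in Nrf2-/- sperm, and at 9 of the 10 WT sperm was above 60%. The exception, at 75508939, had 0% in Nrf2-/- and 2.91% in WT sperm, although brain had 46.4% and 96.2%.

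The called region that was higher off chromosome 2 lay in the promoter of Pgk1 on the X chromosome. Pgk1 encodes the glycolytic enzyme phosphoglycerate kinase, and its promoter is also in wide use to drive marker genes in targeting cassettes. The sources used here do not say whether the Nrf2 null allele carries such a cassette. The region is shown with the CpG that differed by more than 20 points in capitals.
Pgk1 promoter, chrX:106186721-106186855: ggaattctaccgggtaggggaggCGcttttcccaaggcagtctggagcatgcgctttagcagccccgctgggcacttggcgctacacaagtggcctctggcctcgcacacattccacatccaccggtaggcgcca

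The 8 smoked Nrf2-/- libraries had 20.97%, 13.8%, 22.5%, 7.08%, 7.38%, 20.5%, 16.8% and 14.6% DNAme at this region. The 8 smoked WT libraries had 0%, 1.28%, 1.39%, 0%, 1.85%, 1.19%, 3.26% and 0%. No library of the first group reached down to the second. The means were 15.5% ± 5.94 (SD, n = 8) and 1.12% ± 1.13 (n = 8), a difference of 14.3 points with a half-interval of 4.15 (limma adjusted p = 0.0209, and 0.0597 without smoked Nrf2-/- column 2 and smoked WT column 8). Without any of smoked Nrf2-/- columns 2 or 8 or smoked WT columns 1, 2, 4, 5 or 6 the adjusted p also rose above 0.05, to at most 0.0738. All 6 cytosines of the region were higher, with means of 9.43% to 28.5% against at most 3.72%. A further 12 cytosines, +61 to +122 bp from the start of the gene, were also all higher, with means of 1.56% to 6.74% against at most 2.36%. At 106186620, -480 bp from the start, the means were 2.83% ± 5.46 and 1.66% ± 3.12. At 106186360, -740 bp from the start, they were 17.2% ± 5.004 and 12.3% ± 12.7, and 6.60% and 6.14% in sons of unexposed sires.

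Sons of unexposed Nrf2-/- sires had 12.3% ± 5.35 (n = 8) against 0.139% ± 0.393 (n = 8) in sons of unexposed WT sires (difference 12.1 points, limma adjusted p = 0.0169). All 18 cytosines were higher there as well. In F0 sperm the region had 0.879% ± 1.66 against 0.156% ± 1.22, and the difference did not pass (limma adjusted p = 0.882). The males of both groups carry a single X chromosome, inherited from CAST/EiJ mothers. Reads from a copy of this promoter elsewhere in the genome could not be told apart from reads of the X chromosome in these percents.

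**Figure D3:**
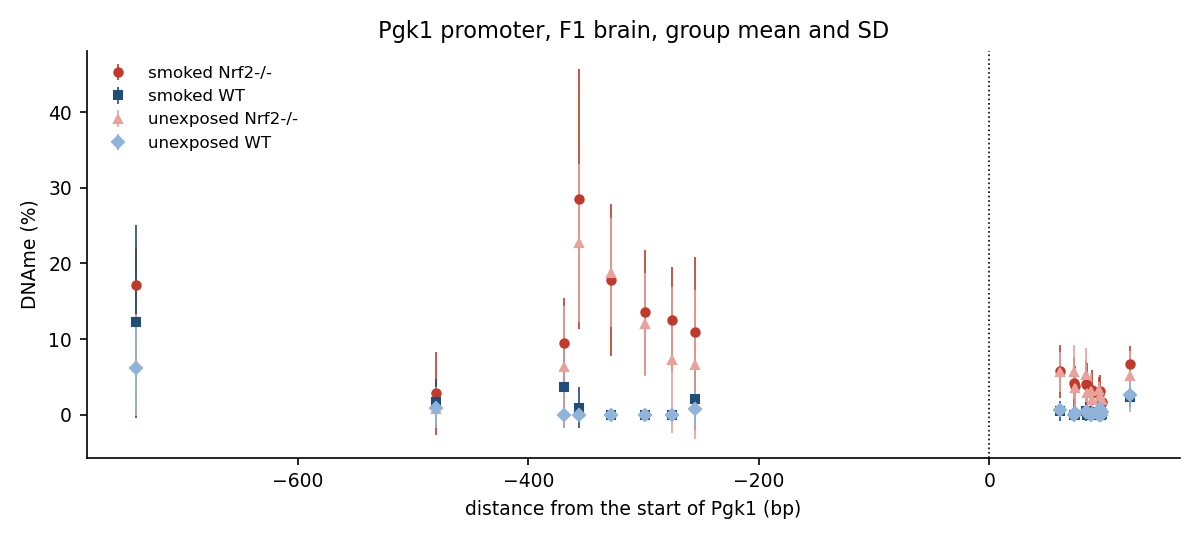
DNAme (%) of cytosines around the start of Pgk1 (distance in bp, dotted line at the start), as group mean with SD over up to 8 libraries of sons of smoked and unexposed Nrf2-/- and WT sires. From -369 to -255 bp both groups of Nrf2-/- sires lay at 6.38% to 28.5%, and both groups of WT sires at no more than 3.72%.

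Of the remaining pair of called regions, an intergenic region at chr1:36789206-36789276, 10222 bp from the start of the T cell kinase gene Zap70, had the largest difference of the 8. Its smoked Nrf2-/- libraries had 30.95%, 4.17%, 23.7%, 16.7%, 12.3%, 43.3% and 20.96%, and its smoked WT libraries had 84.1%, 80.99%, 68.95%, 63.5%, 61.2%, 68.1% and 51.6%. The groups did not overlap, although each was wide. The means were 21.7% ± 12.8 (n = 7) and 68.3% ± 11.3 (n = 7), a difference of -46.6 points with a half-interval of 13.4 (limma adjusted p = 0.0257), and the adjusted p was 0.871 with each library's level as a covariate. It also rose above 0.05 without any of smoked Nrf2-/- columns 2, 3, 5, 6 or 8 or smoked WT columns 1 to 6. In sons of unexposed sires the region had 44.6% ± 10.6 (n = 7) against 38.1% ± 8.05 (n = 5), a difference of 6.41 points (limma adjusted p = 0.678). The difference between the 2 genotype contrasts was -53.03 points, which did not pass (limma adjusted p = 0.0795).

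The other region lay within the gene Gm11639 on chromosome 11 (chr11:104814677-104814755) and rested on fewer libraries. It had 52.6%, 54.2%, 66.7% and 62.5% in the 4 smoked Nrf2-/- libraries with a value, and 91.3%, 85.7%, 93.6%, 87.2%, 87.04% and 93.3% in 6 smoked WT libraries. The difference was -30.7 points (limma adjusted p = 0.0165), and in sons of unexposed sires it was -16.3 points (limma adjusted p = 0.508, unadjusted p = 0.00426). The middle cytosine of 3 had 3.57% ± 7.14 (n = 4) against 100% in all 7 smoked WT libraries with a value, and the first was higher instead, with 80.2% ± 34.2 (n = 5) against 65.6% ± 8.12 (n = 6). The call was lost, with an adjusted p of up to 0.191, with the covariate or without any of smoked Nrf2-/- columns 3 or 8 or smoked WT columns 2, 4, 5 or 6.

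Away from chromosome 2, 7 single cytosines were called. 6 of them moved the same way in sons of unexposed sires, 3 with an unadjusted p below 0.05. The larger of the 2 rises was at chromosome 6, position 123754469, 24410 bp from the start of the vomeronasal receptor gene Vmn2r24. It had 40.4% ± 7.09 against 12.1% ± 4.80 (limma adjusted p = 0.0339), and 37.6% against 12.1% without smoke. In an intron of Daam1, an actin regulator, a cytosine had 49.7% ± 11.8 against 89.9% ± 4.13 (limma adjusted p = 0.00996), and 66.1% against 85.6% without smoke. These single cytosines were named after their values were seen.

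3 further regions, the highest ranked by p among those that were higher, did not pass. Rgs9, which regulates dopamine receptor signalling in striatum, had an intergenic region 14228 bp from its start with 6.04% ± 1.86 against 1.52% ± 1.06 (difference 4.52 points, limma adjusted p = 0.0667). Without smoke it had 8.05% ± 3.66 against 2.03% ± 2.11. The promoter region of Foxj2, a forkhead factor gene, had 5.40% ± 1.80 against 0.892% ± 1.34 (limma adjusted p = 0.0840), and that of Phactr1, a phosphatase and actin regulator, had 4.54% ± 1.15 against 1.69% ± 1.02 (limma adjusted p = 0.189). In all 3 the groups overlapped.

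The second account of the data concerns level across the genome. Over the scoreable cytosines, sons of smoked Nrf2-/- sires had a mean of 34.6% ± 2.08 (SD, n = 8, range 31.7% to 36.6%) and sons of smoked WT sires 36.2% ± 2.23 (n = 8, range 30.9% to 38.01%). The difference of -1.59 points was within the spread between libraries (two-sided exact permutation p = 0.165). Without smoked WT column 8 it was -2.34 points (exact permutation p = 0.0112), and without the lowest library of each group -1.93 points (exact permutation p = 0.0210). Over the 923246 cytosines with a value in all 16 libraries it was -0.517 points (exact permutation p = 0.0678). Over all cytosines of each library, a set that differs between libraries, it was -4.03 points (34.8% against 38.8%, exact permutation p = 0.0618).

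Partly methylated regions varied most. Regions with a mean of 25% to 75% had 50.7% ± 4.47 (n = 8, range 43.9% to 55.2%) against 55.8% ± 4.97 (n = 8, range 44.3% to 60.1%), a difference of -5.03 points (exact permutation p = 0.0517, 0.155 after Benjamini-Hochberg adjustment over 7 classes of region). Regions above 75% differed by -1.50 points (exact permutation p = 0.0168, adjusted 0.117) and those under 25% by -0.259 points (exact permutation p = 0.429). By annotation, promoter regions differed by -0.841, exons by -2.80, introns by -3.02 and intergenic regions by -2.51 points, with adjusted exact permutation p between 0.155 and 0.392. No class passed with all 16 libraries. Without smoked WT column 8, partly methylated regions differed by -6.66 points (exact permutation p = 0.00186, adjusted 0.00326), and 6 of the 7 classes passed, all but the regions under 25%. Unexposed sires gave the opposite order at partly methylated regions, with 55.8% ± 2.13 (n = 8) for Nrf2-/- and 54.4% ± 2.13 (n = 8) for WT.

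**Figure D4:**
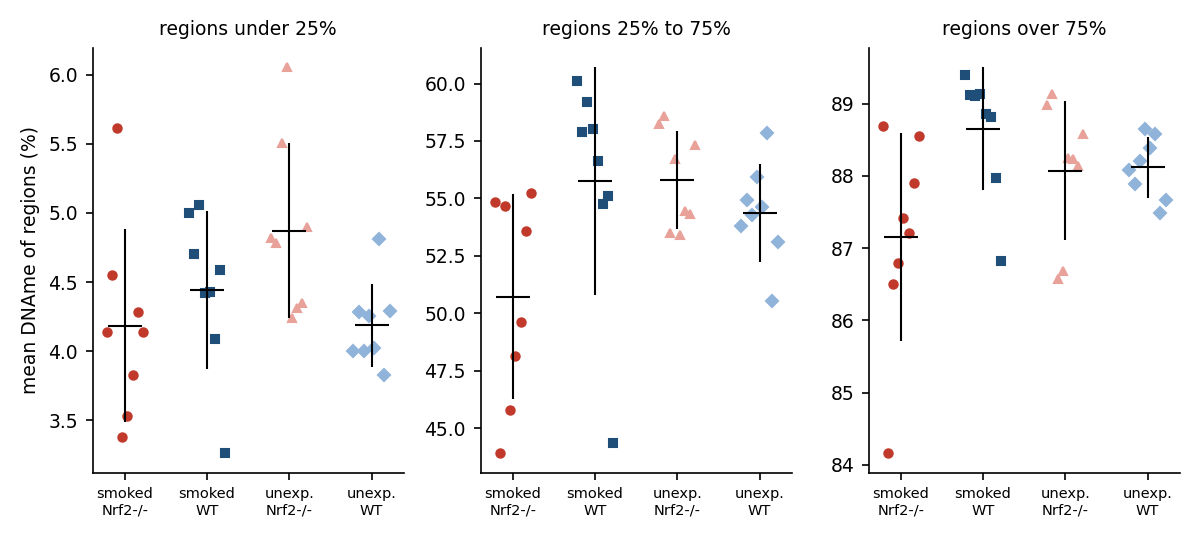
Mean DNAme (%) of regions in 3 classes of level, a point for each library with mean and SD in black, for sons of smoked and unexposed Nrf2-/- and WT sires. Between 25% and 75% the smoked Nrf2-/- libraries spread from 43.9% to 55.2%, and smoked WT column 8, at 44.3%, lay apart from the other 7 of its group.

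A rule by size, in which at least 1/3 of the cytosines of a region and its mean change by more than 5 points, ignores this spread and involves no test. It gave 14726 differentially methylated regions (DMRs, 17.8% of regions), 695 higher (0.839%) and 14031 lower (16.9%) in sons of smoked Nrf2-/- sires. The number higher was 1066 of 12679 without smoked Nrf2-/- column 2 and 1891 of 21148 with a joining distance of 300 bp. Of the partly methylated regions 47.7% were DMRs, against 5.05% of regions under 25% and 11.4% of those above 75%. By annotation the share was 7.45% in promoters, 23.05% in exons, 26.5% in introns and 21.3% in intergenic DNA. Chromosome 2 had 17.6% and chromosome X 9.18%, and the other autosomes lay between 15.3% and 20.2%. In contrast to the limma calls, DMRs were thus spread over all autosomes. At an unadjusted p below 0.05, limma gave 10141 regions (12.2%), 3153 higher and 6988 lower. This split at the unadjusted p turned to 8569 higher and 6252 lower when each library was centred, by subtracting its median deviation from the region means. The DMRs by size did not turn. With centred libraries they numbered 14131, 818 higher and 13313 lower.

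At the regions that were lower by size, the libraries of unexposed sires had a median difference of 1.22 points in the other direction, and 37.2% of them were lower there. Over all regions that contrast had a median of 0.409 points with 33.5% lower, and over partly methylated regions 1.36 points with 34.2% lower. The same rule gave 6198 DMRs between the genotypes of unexposed sires (7.61% of 81419 regions), 4419 higher and 1779 lower. 951 regions were DMRs in the same direction in both, which is 6.46% of the DMRs with smoke and 15.3% of those without. In opposite directions were 2460, or 16.7% of the DMRs with smoke. DMRs with smoke were mostly lower and those without mostly higher, and both overlaps are to be read beside this. A test of the difference between the genotype contrasts called 0 of 82315 regions (limma, adjusted p below 0.05), with 7775 at an unadjusted p below 0.05. It called 0 on the arcsine scale and 0 with centred libraries, with 7726 and 11131 at the unadjusted level. limma called 10 regions between the genotypes of unexposed sires (0.0121%), with 7911 at an unadjusted p below 0.05 (9.61%).

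**Figure D5:**
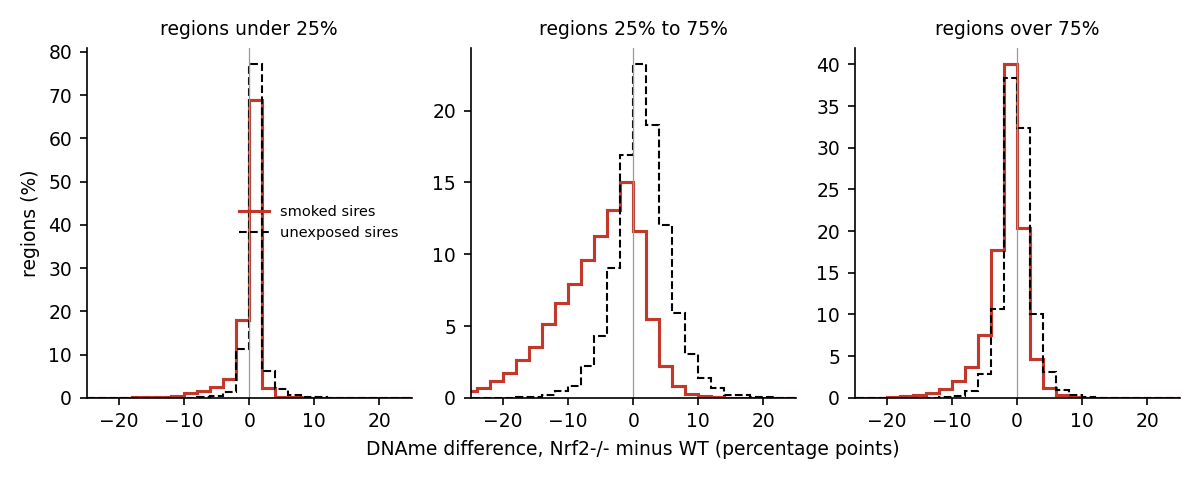
Share of regions (%) by difference in DNAme between sons of Nrf2-/- and WT sires (percentage points, 2-point bins), for smoked sires (red) and unexposed sires (dashed black), in 3 classes of level. Between 25% and 75% the differences of smoked sires centred at -4.23 points and those of unexposed sires at 1.36 points.

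The spread between libraries was measured as the mean absolute deviation from the group mean over 61663 regions with all values. It was 2.77 ± 0.306 points (n = 8) for smoked Nrf2-/- and 2.76 ± 0.786 (n = 8) for smoked WT, with an exact permutation p of 0.982. Without smoked WT column 8, whose own deviation was 4.29 points, the WT value was 2.46 ± 0.469 (n = 7) and the difference 0.304 points (exact permutation p = 0.154). Among these regions, the groups did not overlap at 41 (0.0665%), 22 higher and 19 lower. On the mitochondrial chromosome, where little CpG methylation is expected and unconverted cytosines would show, the mean was 1.17% ± 0.268 (n = 8) against 0.964% ± 0.110 (n = 8), with an exact permutation p of 0.0521.

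The genes around NRF2 were described by list, with the background of 17.8% DMRs and 12.2% of regions at an unadjusted limma p below 0.05. Of all 14726 DMRs 14031 were lower, and the direction of DMRs in each list is to be read beside this share. limma called 0 regions in any of 17 lists after adjustment over all regions. The 11 genes of the NRF2 pathway and its partners had 39 regions, of which 9 were DMRs, 1 higher and 8 lower. 9 passed the unadjusted p, 2 higher and 7 lower, or 23.1%, and the median difference was 0.178 points beside -0.429 over all regions. The smallest p was at a coding exon of Keap1, the NRF2 repressor (chr9:21234012-21234132). Its smoked Nrf2-/- libraries had 73.9%, 66.25%, 68.75%, 34.1%, 70.2%, 67.9%, 68.6% and 77.9%, and its smoked WT libraries 98.1%, 86.9%, 86.7%, 91.5%, 86.7%, 69.5% and 88.0%. The groups overlapped through the library at 69.5%, and the difference of -20.8 points did not pass (limma adjusted p = 0.255).

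NRF2 target genes had 12 DMRs in 84 regions (14.3%), 1 higher and 11 lower, and 11 regions at the unadjusted p (13.1%). Their smallest p was at the promoter of Ugdh, a UDP-glucose dehydrogenase gene, where the means were 1.05% ± 0.526 and 0.204% ± 0.522 (limma adjusted p = 0.301). Antioxidant enzyme genes had 6 DMRs in 42 regions, all lower. Among them, coding sequence of Sod3, the extracellular superoxide dismutase gene, had 20.2% ± 3.69 against 27.8% ± 5.79 (limma adjusted p = 0.323). The aryl hydrocarbon receptor pathway, which senses compounds of smoke, had 2 DMRs in 27 regions (7.41%). Its smallest p was within 1 kb of the start of Arnt, the receptor's partner, with 3.61% ± 2.36 against 1.19% ± 0.785 (limma adjusted p = 0.320). Genes of oxidative phosphorylation had 12 DMRs in 96 regions, and 14 of their 17 regions at the unadjusted p (17.7%) were higher. 59 of the 96 were promoter regions, and over all promoter regions 33.1% were lower, with a median difference of 0.243 points. The smallest p was in a region within the ATP synthase gene Atp5o, over an exon of another gene. That region was lower instead, with 57.5% ± 5.25 (n = 4) against 74.2% ± 7.52 (n = 6) and a limma adjusted p of 0.263.

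Glutamate and GABA receptor genes had 46 DMRs in 273 regions (16.8%), 45 of them lower, beside 14031 of 14726 DMRs over all regions. Their smallest p was in an intron of the kainate receptor gene Grik3 (chr4:125568356-125568419), with 40.6% ± 8.55 (n = 7, 24.8% to 50.6%) against 67.9% ± 10.2 (n = 6, 51.9% to 80.1%). The groups did not overlap, and the difference of -27.3 points did not pass (limma adjusted p = 0.189). Without smoke the same region had 61.4% against 60.3%. Monoamine and acetylcholine genes had 18 DMRs in 108 regions (16.7%), all lower. The muscarinic receptor gene Chrm1 had 14.8% ± 2.08 against 19.96% ± 1.95 (limma adjusted p = 0.223) and the opposite order without smoke, 19.6% against 14.85%. Stress axis, neurotrophin and neuropeptide genes had 26 DMRs in 160 regions (16.25%), and an exon region assigned to the somatostatin receptor gene Sstr2, which overlaps Slc39a11, had 74.4% ± 8.53 (n = 7) against 86.8% ± 3.52 (n = 7, limma adjusted p = 0.255). Calcium channel genes had 57 DMRs in 245 regions (23.3%), 54 of them lower. Of their 74 partly methylated regions 36 were DMRs (48.6%), beside 47.7% in the whole genome. The smallest p was at 1.43% ± 0.404 against 0.572% ± 0.304 in a region within Cacna1d that is also the promoter of Dcp1a (limma adjusted p = 0.233).

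Imprinted genes, which carry methylation on the allele of a single parent, had 37 DMRs in 134 regions (27.6%), all lower, with a median difference of -1.45 points. Over all regions 14031 of 14726 DMRs were lower, and the median difference was -0.429 points. 43 of these regions were partly methylated, and 53.5% of those were DMRs, beside 47.7% of all partly methylated regions. At the unadjusted limma p, 13 imprinted regions passed (9.70%), 1 higher and 12 lower. The smallest p was in an intron of Ppp1r9a, with 63.05% ± 11.4 against 79.03% ± 4.11 (limma adjusted p = 0.246). Genes of the DNA methylation machinery had 11 DMRs in 71 regions (15.5%). Their smallest p was in a region within Trim28, the gene of a corepressor that guards imprints, over an exon of another gene. It had 47.8% ± 7.25 against 59.97% ± 7.35 (limma adjusted p = 0.299).

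Prefrontal cortex holds many cell types, and DNAme of their marker genes was read beside the shift. Oligodendrocyte markers had 17 DMRs in 50 regions (34.0%), astrocyte markers 11 in 44 (25%), microglia markers 10 in 42 (23.8%) and markers of endothelium, pericytes and blood 13 in 39 (33.3%), all lower. Excitatory neuron markers had 31 in 122 (25.4%), 28 of them lower, and inhibitory neuron markers 3 in 55 (5.45%). Over all regions 14031 of 14726 DMRs were lower. Partly methylated regions made up 18 of the 50 oligodendrocyte regions and 7 of the 55 inhibitory ones. Among partly methylated regions alone, beside 47.7% in the whole genome, DMRs were 12 of 18 for oligodendrocyte (66.7%), 9 of 12 for endothelial and blood (75%), 8 of 13 for astrocyte (61.5%), 5 of 13 for microglia (38.5%), 25 of 42 for excitatory (59.5%) and 1 of 7 for inhibitory markers (14.3%). The median differences were -2.84 points for oligodendrocyte, -2.96 for microglia, -1.30 for endothelial and blood, -0.238 for astrocyte, -0.291 for excitatory and 0.113 for inhibitory markers. The mean level of a list's regions ranged over the libraries from 29.1% to 38.9% against 29.4% to 41.96% for oligodendrocyte, 52.003% to 62.97% against 47.3% to 65.5% for microglia and 26.3% to 37.4% against 27.1% to 39.4% for astrocyte markers. It ranged from 46.5% to 57.4% against 44.98% to 59.7% for endothelial and blood, 29.8% to 38.3% against 28.6% to 38.99% for excitatory and 15.9% to 18.6% against 14.05% to 19.4% for inhibitory markers, so the groups overlapped in every list. The smallest p of each list was at Mbp (6.45% ± 2.39, n = 7, against 10.4% ± 2.31, n = 6), Slc1a3 (1.86% ± 0.439 against 0.777% ± 0.461), Itgam (72.6% ± 9.18, n = 8, against 85.9% ± 5.35, n = 7, in an intron that also belongs to Gm49368), Flt1 (2.24% ± 0.821 against 1.21% ± 0.422), Cux2 (13.9% ± 6.69, n = 6, against 31.3% ± 3.42, n = 4) and Lhx6 (4.25% ± 1.37 against 6.79% ± 1.46). Where no n is given, it was 8 in each group. Over these regions the limma adjusted p lay between 0.210 and 0.302. The part of cell makeup in these values was not tested. 3 inhibitory neuron genes (Dlx1, Dlx2 and Gad1) and the excitatory marker Tbr1 lie within the chromosome 2 span around Nfe2l2.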

How the data were processed

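RRBS was run on 112 libraries of sperm and prefrontal cortex, and 16 brain libraries were compared here. Per the labels and methods, the authors aligned reads to mm10 with Bismark (version not given in the sources used here) and deposited, per group, the methylation percent of each cytosine in each library. The methods ask for read coverage above 8 in at least 4 replicates for the study's scoreable CpGs, and do not say whether the deposited percents were filtered in this way. 0 columns of values in the tables used were left out. The authors' tables of regions were not used.

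Scoreable cytosines, with a value in at least 4 libraries of each group, at most 100 bp apart were joined into regions of at least 3 cytosines and above 50 bp. A library's region value, its mean adjusted for missing cytosines, needed 50% of them. limma 3.58.1 (R 4.3.3, trended eBayes, Benjamini-Hochberg) fitted the 2 groups over all regions, and over cytosines with values in at least 6 libraries per group. Fits were tested on simulated data. Changes of 15 points were recovered there at 33 of 100 regions and of 30 points at 79 of 100, among 118 calls with 6 false. Recovery in the measured libraries, with their shifts in level and missing values, was not tested. Means over libraries were compared by exact permutation over 12870 labelings. Genes come from GENCODE vM21, and sequence from the GRCm38 reference, the same build as mm10. A promoter lies within 1 kb of a transcript start. Litters are not given in the sources used here, so p-values measure the spread between these libraries. The members, lists and tests were chosen with earlier results of these data known.

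Named regions were those called within 1 Mb of Nfe2l2, those of Nfe2l2, up to 10 per direction that were called and DMRs with at least 6 libraries per group (filled to 5 by smallest p), and the smallest p of each list. Alternatives changed region joining, scale, filters, weights, centring and libraries.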

Additional observations from a re-analysis of the deposited data

Results flagged for a closer look

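Smoked WT column 8 lay far from the other libraries of its group, by Dixon's test of the gap to the nearest library over the range, in 8 measures. Its mean DNAme was 30.9% (nearest other library 35.98%). Its mean was 44.3% in regions of 25% to 75%, 13.1% in promoters, 60.3% in exons, 57.1% in introns and 59.2% in intergenic regions. It was also the highest of its group at the Arnt region (2.77%) and at the Ugdh promoter region (1.44%).

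Other single libraries stood apart at named regions. Smoked Nrf2-/- column 7 had 9.34% at the Foxj2 promoter, where smoked WT column 7 had 3.92%. Smoked Nrf2-/- column 4 had 34.1% and smoked WT column 6 had 69.5% at the Keap1 region, smoked Nrf2-/- column 2 had 2.39% at the Cacna1d region, and smoked WT column 3 had 15.996% at the Chrm1 region. In all, 14 of 78 groups of values tested had such a library, where chance flags about 1 in 20 of independent groups. These groups are not independent, since the same libraries recur in overlapping measures and many named regions were chosen by p. The count therefore cannot be set against that rate.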

How the results depend on the processing

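The Osbpl6, Tanc1 and Cers6 calls passed under all 28 alternatives run for each. The Pgk1 call was lost under 8 of 28 (highest adjusted p 0.0738), the Pde11a call under 9 of 28 (0.0827), the Gm11639 call under 7 of 27 (0.191), the Zap70 call under 13 of 27 (0.871) and the Hnrnpa3 call under 21 of 28 (0.238). limma called 13 regions with a joining distance of 300 bp, 78 when all 4 brain groups shared the spread, 5 with the partly methylated level of each library as a covariate (chosen after seeing the data), and 3 to 22 with a library left out. It was 22 without smoked WT column 8, 4 without smoked Nrf2-/- columns 2 or 3 or smoked WT columns 4 or 6, and 3 without smoked Nrf2-/- column 8 or smoked WT columns 2 or 5. Cytosine calls with a library left out ran from 21 to 35, and numbered 39 on the arcsine square root scale. DMRs fell to 5537 (40 higher, 5497 lower) at 10 points and ran from 12679 to 16901 with a library left out. Without the lowest library of each group, an alternative chosen after seeing the data, 8 regions, 25 cytosines and 14977 DMRs were called, and mean DNAme differed by -1.93 points.

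With a library left out, mean DNAme differed by -2.34 to -1.18 points, regions under 25% by -0.464 to -0.145, of 25% to 75% by -6.66 to -4.06, above 75% by -1.76 to -1.07, promoters by -1.51 to -0.530, exons by -4.06 to -2.22, introns by -4.08 to -2.39 and intergenic regions by -3.51 to -1.98. The lowest of each range except that of regions under 25%, in size the largest, came without smoked WT column 8. Over cytosines with a value in all 16 libraries, regions under 25% differed by 0.146 points and promoters by 0.124, the reverse of the main direction. The other classes kept their direction there at a smaller size. Regions of 25% to 75% differed by -3.60 points, those above 75% by -0.813, exons by -1.39, introns by -1.71 and intergenic regions by -1.30. The spread between libraries differed by -0.116 to 0.304 points, and was below 0, against 0.00684 with all libraries, without smoked Nrf2-/- columns 2 to 5 (-0.116, -0.0643, -0.0566 and -0.0618) or smoked WT columns 2, 3, 5, 6 or 7 (-0.0671, -0.061, -0.0616, -0.0687 and -0.0227). The cause was not tested. The Nfe2l2 region turned to 0.256, 0.164 and 0.188 points without smoked Nrf2-/- column 2, smoked Nrf2-/- column 5 or smoked WT column 3, and to 5.35 with the covariate.

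No paired analysis was possible because the columns carry no replicate number. Read depth is unknown, so no floor per cytosine can be set.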
